A study of Homo sapiens with 6 samples.

Results

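Transcripts of 5 enzymes that make or break down monoamines, MAOA, MAOB, DDC, TPH1 and HNMT, were examined in HuCCT1, a human intrahepatic cholangiocarcinoma cell line. They are 5 of the 20811 genes in the transcriptome table and were chosen by name, with their levels in both lines already known, so the difference between the lines is described for these 5 genes and not tested. HuCCT1/CD90+ cells carried human THY1-CMV-GFP and HuCCT1/CD90− cells Lenti-CMV-GFP-2A-Puro-Blank, both delivered by lentivirus at an MOI of 40 and grown in the same medium, with 3 libraries of each line, called CD90+ and CD90− libraries below. THY1 encodes CD90. By the names of the constructs both lines carry a CMV promoter and GFP, and the control construct alone is named for a puromycin cassette. The sources used here do not say whether a line was a pool or 1 clone, or whether its 3 libraries came from separate cultures, so p-values measure only the spread between these libraries. Each gene was read from 1 amplicon, and levels are in RPM, reads of a gene scaled to a common library total.

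Monoamines such as serotonin, dopamine and histamine are made from amino acids by a hydroxylase step and a decarboxylase step, or by decarboxylation alone. TPH1 is the hydroxylase that commits tryptophan to serotonin outside the brain, and DDC is the decarboxylase that turns the hydroxylated amino acids into serotonin and dopamine. MAOA and MAOB are flavoenzymes of the outer mitochondrial membrane that oxidise monoamines to aldehydes and release hydrogen peroxide, MAOA preferring serotonin and noradrenaline and MAOB phenylethylamine. HNMT inactivates histamine inside cells by adding a methyl group. MAO enzymes are abundant in liver, and TPH1 is typical of enterochromaffin and other neuroendocrine cells. Cholangiocytes have been described as responding to serotonin and histamine.

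MAOA and MAOB are neighbours on chromosome X whose coding strands run towards each other, so that their starts lie at the outer ends of the pair. The 250 bases before each start are shown because these are the only members whose levels separated the lines. They were taken from RefSeq on GRCh38.p14, at chrX:43656049-43656298 on the plus strand for MAOA and at chrX:43882451-43882700 on the minus strand for MAOB. Capitals mark the GC box, the letters GGGCGG or, on the other strand, CCGCCC, to which SP1 and related factors bind.
MAOA: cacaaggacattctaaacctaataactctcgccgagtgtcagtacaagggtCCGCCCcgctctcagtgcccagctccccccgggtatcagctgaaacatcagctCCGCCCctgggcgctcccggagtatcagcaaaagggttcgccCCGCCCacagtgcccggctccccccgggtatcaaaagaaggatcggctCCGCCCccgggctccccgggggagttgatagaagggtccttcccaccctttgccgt
MAOB: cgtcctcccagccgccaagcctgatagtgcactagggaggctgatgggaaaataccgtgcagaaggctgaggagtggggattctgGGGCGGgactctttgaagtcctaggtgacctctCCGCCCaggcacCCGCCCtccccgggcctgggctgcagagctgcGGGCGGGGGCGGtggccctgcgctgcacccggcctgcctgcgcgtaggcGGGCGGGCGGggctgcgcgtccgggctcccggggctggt
The MAOA stretch held 4 GC boxes and the MAOB stretch 7, some of which overlap, while the stretches before the starts of DDC, TPH1 and HNMT held 0. The stretches also differ in base composition, with 63.2% G or C for MAOA and 72% for MAOB. The share was 42.4% and 58% for DDC, 58.8% for TPH1 and 39.6% for HNMT. Of 35116 promoter stretches of this length in the same reference, 42.6% held at least 1 GC box and 7.63% held 4 or more. An E box, the letters CAGGTG or CACCTG, was found in none of the 5 genes' stretches and in 17.5% of all stretches. A match of letters is a description and does not show binding.

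In depth, the libraries held 8587634 to 10551516 reads, at which 3 reads, used here as the detection floor of a library, correspond to 0.284 to 0.349 RPM. Exact intervals and floors cover counting error only. The transduced THY1 had 0, 1 and 0 reads in the CD90− libraries and 435, 445 and 680 reads in the CD90+ libraries. A gene was called, or said to rise or fall, at a fold of at least 1.5 and an adjusted p of at most 0.05 (limma, Benjamini-Hochberg across the table), which 15.1% of all genes reached, 7.59% higher and 7.49% lower. The biliary and epithelial markers KRT7, KRT19, KRT8, KRT18, EPCAM, SOX9 and CDH1 were all detected, with a summed level of 8216 to 9320 RPM in CD90− and 11156 to 11931 RPM in CD90+, and KRT18, EPCAM and CDH1, 3 of the 7, rose. Of 11 neuroendocrine markers, 8 were at or under the floor in all libraries, with CHGA, CHGB, NEUROD1, SCG3 and SCGN among those at 0 reads, and their sum was 0.854 to 1.84 RPM in CD90− and 0.214 to 1.09 RPM in CD90+. Of the 4 mast cell markers measured, TPSB2, MS4A2 and KIT were at 0, and CPA3, with at most 0.642 RPM in any library, fell. Of 7 hepatocyte markers, 5, among them ALB, were at or under the floor in all libraries, and APOA1 and SERPINA1 fell, with a summed level of 3.69 to 5.89 RPM in CD90− and 0 to 0.814 RPM in CD90+. The sum of 6 fibroblast markers was 40.9 to 64.03 RPM in CD90− and 20.4 to 24.7 RPM in CD90+, with COL1A2, PDGFRB, DCN and LUM lower, and the part of these lists in the results was not tested. Of these marker calls KRT18, EPCAM, CDH1 and PDGFRB held in each of the alternative fits run for single genes, KRT18 at a fold of 1.96, and the others were lost in at least 1, with SERPINA1, COL1A2 and DCN lost with the replicate number as a block (adjusted p = 0.071, 0.090 and 0.086, limma).

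The lines differed in which of the MAO transcripts they held. MAOA, read from amplicon AMPL2979713, had 2, 0 and 4 reads (0.190, 0 and 0.388 RPM) in the CD90− libraries. In the CD90+ libraries it had 636, 607 and 812 reads (68.2, 70.7 and 88.1 RPM). The lowest CD90+ library was thus far above the highest CD90− library, and CD90− replicate 3, with 4 reads, was the only library of its line above the floor. The mean was 0.193 ± 0.194 RPM in CD90− and 75.7 ± 10.9 RPM in CD90+ (SD, n = 3 each). Over summed reads, 2055 against 6, the ratio of depth-scaled levels was 381, with an exact 95% counting interval of 175 to 1040. The log2(RPM + 1) scale compresses folds that start near 0, and on it the log2 fold change was 6.01 (standard error 0.17). In bulk samples a change in the number of cells that express a gene and a change in RNA per cell cannot be told apart.

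MAOB, read from amplicon AMPL3163778, differed in the other direction. It had 85, 49 and 69 reads (8.06, 5.24 and 6.69 RPM) in the CD90− libraries and 1, 1 and 0 reads (0.107, 0.116 and 0 RPM) in the CD90+ libraries. All 3 CD90+ libraries were under the floor and all 3 CD90− libraries far above it. The mean of 6.66 ± 1.41 RPM in CD90− (SD, n = 3) stood against 0.0743 ± 0.0645 RPM in CD90+ (SD, n = 3). Over summed reads, 203 against 2, the level in CD90− was 91.2 times that in CD90+, with an exact 95% counting interval of 24.9 to 758, and the log2 fold change was -2.82 (standard error 0.15).

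Within each library the 2 MAO transcripts were nearly exclusive. Of the reads on either gene, MAOA took 2.30% (exact 95% interval 0.280% to 8.06%), 0% (0% to 7.25%) and 5.48% (1.51% to 13.4%) in the CD90− libraries. In the CD90+ libraries it took 99.8% in replicates 1 and 2, with lower limits of 99.1% in each, and 100% (99.5% to 100%) in replicate 3. The summed level of both genes was 5.24 to 8.25 RPM in CD90− and 68.3 to 88.1 RPM in CD90+, so the total of MAO reads was higher in CD90+ as well. The amplicons may differ in how well they amplify, so a share of reads need not be a share of transcripts. MAOA and MAOB were the only members whose libraries did not overlap between the lines, 1 higher and 1 lower. Over all 20811 genes 35% did not overlap, 17.3% higher and 17.7% lower, and since the members were chosen on this comparison nothing is read from their count.

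HNMT was detected well in both lines. It had 36.4, 49.5 and 54.9 RPM in the CD90− libraries and 37.7, 39.9 and 34.6 RPM in the CD90+ libraries, from 319 to 566 reads each. The libraries of the lines overlapped, CD90− replicate 1 lying below 2 of the CD90+ libraries. The mean was 46.9 ± 9.53 RPM in CD90− and 37.4 ± 2.68 RPM in CD90+ (SD, n = 3 each), and the spread was 20.3% of the mean in CD90− and 7.15% in CD90+. The log2 fold change was -0.30, with a 95% interval of -0.77 to 0.16 from the limma standard error, which covers the spread between libraries. Without CD90− replicate 3 it was -0.18.

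**Figure D1:**
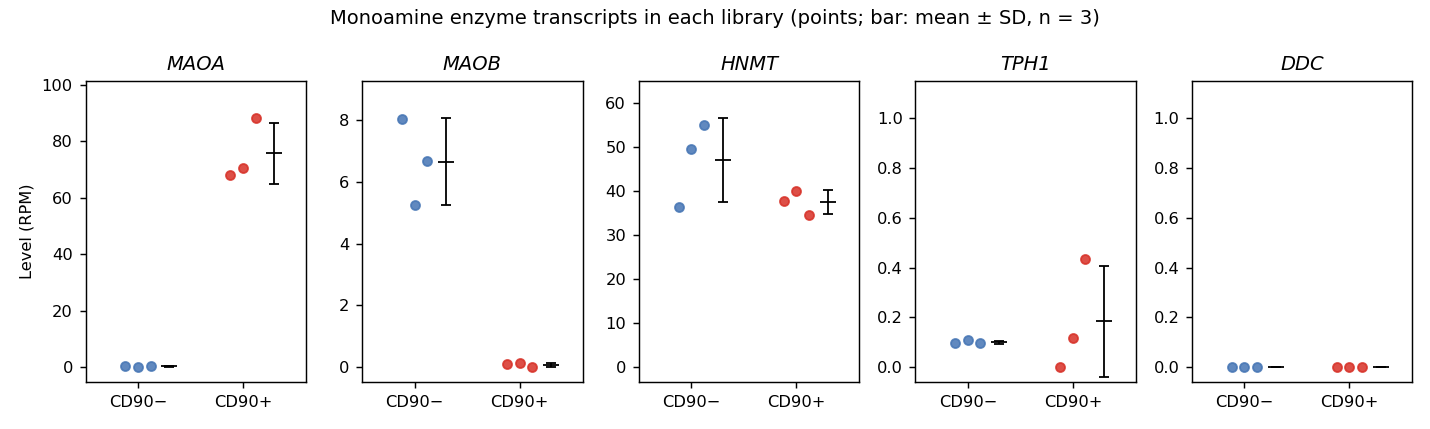
Level in RPM (vertical axes, a separate linear scale for each gene) of MAOA, MAOB, HNMT, TPH1 and DDC in the 3 CD90− (blue) and 3 CD90+ (red) libraries, with the mean and SD of each line in black. MAOA runs from at most 0.388 to at least 68.2 RPM, MAOB from at least 5.24 to at most 0.116 RPM, HNMT overlaps between the lines, and TPH1 and DDC stay under 0.5 RPM.

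The enzymes of synthesis among the 5 were at or near the limit of detection in both lines. DDC had 0 reads in every library, which allows a level of up to 0.284 to 0.349 RPM per library. TPH1 had 1, 1 and 1 reads in the CD90− libraries and 0, 1 and 4 reads in the CD90+ libraries. Only CD90+ replicate 3, at 0.434 RPM, was above the floor, and no fold is given. Over summed reads, 5 against 3, the ratio of CD90+ to CD90− was 1.86, with an exact 95% counting interval of 0.361 to 11.9, and a difference was not detectable at this depth. The amplicons of DDC and TPH1 each read 1 part of the transcript, and isoforms that lack this part would not be counted.

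The genes on either side of the members were set beside them, in the gene order of GRCh38.p14. PPP1R2P9, GPR82 and GPR34, the nearest measured genes before MAOA, were at or under the floor in both lines. Beyond them CASK was at 194 ± 42.3 and 134 ± 24.2 RPM (adjusted p = 0.21, limma), and DDX3X, an RNA helicase gene, fell short of a call, since its log2 fold change of -0.51 passed the adjusted p (0.038, limma) but not the fold. On the other flank NDP, which encodes the signalling protein norrin and starts next to MAOB, had 7.20 ± 2.43 RPM in CD90− and 2.07 ± 0.951 RPM in CD90+ (SD, n = 3 each). This log2 fold change of -1.43 did not pass the threshold (adjusted p = 0.061, limma), but passed on recovered reads with edgeR (adjusted p = 0.00039) and DESeq2 (adjusted p = 9.0e-05). Next to it EFHC2 had at most 4 reads in any library, and FUNDC1, a mitophagy receptor gene, had 9.45 ± 2.12 and 9.72 ± 1.06 RPM. KDM6A, a histone demethylase gene on the far side of MAOB, rose from 0.235 ± 0.0745 to 1.14 ± 0.0505 RPM, with 10 to 11 reads in each CD90+ library (adjusted p = 0.0019, limma), a call lost with an offset of 5 RPM, where the log2 fold change was 0.23. On chromosome X, 276 genes other than MAOA averaged 10 RPM or more, and their median log2 fold change was -0.00088, with 24 called higher and 37 lower, against 991 and 917 of all 8794 genes at this level.

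DDC, TPH1 and HNMT lay among genes of other patterns. On chromosome 7 the median log2 fold change of 404 genes at this level was 0.52, with 144 called higher and 9 lower, against 0.012 over all 8794 such genes. DDC stayed at 0 reads there, while COBL, an actin nucleator gene 2 measured genes away, rose from 0.103 to 72.3 RPM (adjusted p = 0.00026, limma). GRB10, between them, had 11.04 ± 5.54 RPM in CD90− and 24.3 ± 6.59 RPM in CD90+ (adjusted p = 0.21, limma, but 0.0039 with edgeR and 0.0012 with DESeq2 on recovered reads). SEC61G, which encodes a subunit of the protein translocon, rose from 71.5 ± 15.1 to 154 ± 23.3 RPM (adjusted p = 0.030, limma), a call lost with the replicate block (adjusted p = 0.12) and without any library but CD90− replicate 3 (0.054 to 0.10). FIGNL1, next to DDC on the other side, had 34.0 ± 6.94 RPM in CD90− and 38.8 ± 1.87 RPM in CD90+, and the other neighbours of DDC were at the floor in both lines. TPH1 lies on chromosome 11, where the median of 556 such genes was 0.24, and its neighbours SERGEF and SAAL1 had log2 fold changes of 0.37 and 0.28 that did not pass the threshold. SAA4, a serum amyloid gene, had 1.12 ± 0.459 RPM in CD90− and 3.23 ± 0.922 RPM in CD90+ (adjusted p = 0.052, limma) and passed with edgeR (0.0029) and DESeq2 (0.0090), and the other neighbours of TPH1 had at most 5 reads in any library. HNMT lies on chromosome 2, with a median of 0.012 over 571 genes, and CXCR4, the nearest called gene on one side of it, rose from 34.8 ± 5.55 to 85.5 ± 11.8 RPM (adjusted p = 0.011, limma). On its other side ARHGAP15 fell from 3.66 to 0.0750 RPM (adjusted p = 0.00052, limma). The log2 fold changes of MCM6, DARS, SPOPL, LRP1B and KYNU were -0.44, -0.33, 0.14, -0.73 and -1.24 and were not called with limma, while LRP1B and KYNU, an enzyme of tryptophan breakdown, passed with edgeR (adjusted p = 0.021 and 0.00083) and DESeq2 (0.041 and 0.00028).

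**Figure D2:**
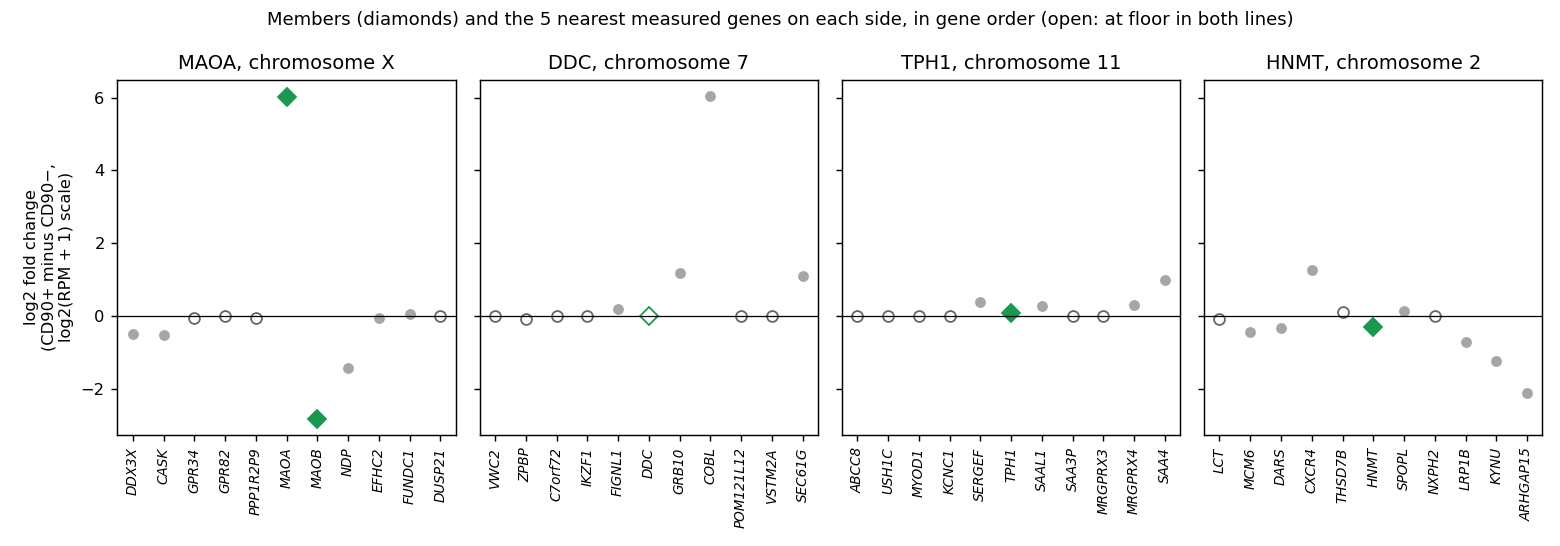
Log2 fold change of CD90+ over CD90− on the log2(RPM + 1) scale (vertical axis) for MAOA, DDC, TPH1 and HNMT with the 5 nearest measured genes on each side (horizontal axis, in gene order). Members are green diamonds, other genes grey circles, and open symbols mark genes at the floor in both lines. MAOA at 6.01 and MAOB at -2.82 sit side by side, while DDC is at 0 beside a raised COBL.

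Genes with the most similar profile over the 6 libraries were sought among the 8794 genes that averaged 10 RPM or more, by the Pearson correlation of log2(RPM + 1). For MAOA these were CDH1 (r = 0.99967), MYO5B (r = 0.99896) and OCLN (r = 0.99891), genes of epithelial junctions and apical transport. For MAOB they were AK4, LYPD6 and PPAPDC1A (r of 0.99978, 0.99883 and 0.99883). The 6 points are 2 tight groups, so such values mainly restate the gap between the lines, and 173 genes reached r of at least 0.99 with MAOA and 94 with MAOB. For HNMT the closest were PPP1CB, SIKE1 and FEM1B (r of 0.99254, 0.98864 and 0.98462). For TPH1, which rests on 8 reads, they were LASP1, SSH2 and TOM1L2 (r of 0.97006, 0.96259 and 0.93422).

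The rest of the monoamine pathway was followed with 6 lists of 94 genes, of which 91 were measured and 40 were at the floor in both lines. By the same call (limma), 5 of the 91 rose and 6 fell, or 12.1%, against 15.1% of all genes. With an unadjusted p of at most 0.05 in place of the adjusted one, 5 rose and 10 fell, against 20.1% of all genes in either direction. At that p and any fold 28 of the 91 passed, against 31.1% of all genes, 15.3% higher and 15.9% lower, which is the background of the unadjusted counts given below. With each library centred on its median 5 rose and 12 fell, against 8.92% and 9.87% of all genes. On recovered reads 17.5% rose and 17.3% fell of the 12070 genes tested with edgeR and its filter. The shares were 11.3% and 11.2% of 20811 genes with edgeR without a filter, and 15.1% and 14.3% of 14399 with DESeq2. These are the background of the counts by these tools given below. Those counts stand beside all measured genes of a list, also genes that a tool left out. By list, limma called 6.67% of the genes of synthesis, 38.5% of breakdown, 14.3% of coenzyme supply, 0% of transport, 3.23% of receptors and 25.0% of regulators. The lists differ in their share of genes at the floor, and of all genes above the floor limma called 22.3%. Leaving out 1 library left 3 to 4 rising and 2 to 6 falling, with 2 falling when CD90+ replicate 3 was left out, 3 falling without CD90− replicate 2 and 3 falling without CD90− replicate 3. The number rising was 3 when CD90− replicate 1 or 3, or CD90+ replicate 1 or 2, was left out. The median log2 fold change was 0 over the 91 genes and -0.076 over the 51 above the floor, beside 0 over all genes and -0.0087 over all genes above the floor.

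Of 15 further genes of synthesis, 1 rose and 0 fell with limma (median log2 fold change 0.051), and 6 were at the floor in both lines. Among them were TH, DBH and PNMT, which make the catecholamines, and AANAT and ASMT, which make melatonin. At an unadjusted p of at most 0.05, at any fold, 4 of the 15 were higher and 1 was lower, and on recovered reads 3 rose and 1 fell with DESeq2, 2 rose and 1 fell with edgeR without a filter, and 2 rose and 0 fell with its filter. TPH2, the hydroxylase of brain serotonin, had 0 reads in CD90− and 1, 1 and 4 reads in CD90+. HDC, which makes histamine, had 3, 7 and 5 reads in CD90− and 0 in each CD90+ library, and was just short of the minimum fold with limma (log2 fold change -0.58). HDC is the gene that fell with DESeq2 and with edgeR without a filter. The gene that rose was GCH1, the first enzyme of tetrahydrobiopterin, the cofactor of TPH1 and of tyrosine hydroxylase. GCH1 had 5.69, 6.74 and 4.66 RPM in the CD90− libraries and 34.2, 33.0 and 34.5 RPM in the CD90+ libraries. All CD90+ libraries were above all CD90− libraries, with a 5.95-fold higher mean, a log2 fold change of 2.39 (standard error 0.13) and an adjusted p of 0.0012 (limma). SPR and PCBD1, further enzymes of this cofactor, did not pass with limma. SPR had 58.4 ± 6.27 and 71.1 ± 6.65 RPM (adjusted p = 0.18, limma) and PCBD1, which recycles it, 117 ± 8.83 and 176 ± 33.2 RPM in CD90− and CD90+ (SD, n = 3 each, adjusted p = 0.078, limma). On recovered reads PCBD1 passed with edgeR (adjusted p = 0.0051) and DESeq2 (adjusted p = 0.0019). The third gene that rose with DESeq2 was its paralog PCBD2, which passed the adjusted p with limma (0.0074) but not the fold.

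Of 13 further genes of breakdown, 2 rose and 3 fell with limma (median log2 fold change -0.43). At an unadjusted p of at most 0.05, at any fold, 4 were higher and 6 lower. On recovered reads 2 rose with edgeR and DESeq2, while 3 fell with edgeR and its filter and 4 with edgeR without a filter and with DESeq2. ALDH1A1, an aldehyde dehydrogenase gene with 6.02 ± 2.10 RPM in CD90− and 2.07 ± 1.29 RPM in CD90+ (SD, n = 3 each, adjusted p = 0.14, limma), fell with edgeR and DESeq2 but not with limma. UGT1A6, which fell with limma, was left out by the filter of edgeR. AKR1B1, aldose reductase, which can reduce the aldehydes that MAO forms, had 3.89, 3.53 and 4.66 RPM in the CD90− libraries and 35.7, 21.5 and 27.5 RPM in the CD90+ libraries. Its mean was 7.02-fold higher in CD90+ (log2 fold change 2.52, standard error 0.21, adjusted p = 0.0038, limma). AKR1B1 lies on chromosome 7, whose median log2 fold change was 0.52, and the part of this in its rise was not tested. The genes that fell were ALDH2, which oxidises the aldehydes, from 149 ± 19.2 to 92.2 ± 13.8 RPM, RNLS, which encodes the flavoprotein renalase, from 11.8 ± 0.893 to 5.68 ± 1.30 RPM, and UGT1A6, which conjugates serotonin, from 0.641 to 0.0363 RPM. Their adjusted p-values were 0.045, 0.024 and 0.0496 (limma). UGT1A6 rests on 4 to 9 reads a library in CD90− and lies in a locus whose genes share exons. The aldehyde enzymes ALDH9A1 and AKR1A1 had log2 fold changes of -0.43 each and were not called, AKR1A1 for its fold. The diamine oxidase AOC1, listed under its older symbol ABP1, had at most 2 reads in any library.

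Of these calls AKR1B1 held whichever library was left out. ALDH2 was lost with each library left out but CD90+ replicate 2 (adjusted p of 0.073 to 0.14, limma). RNLS was lost without any of the 3 CD90− libraries or without CD90+ replicate 3 (0.066 to 0.088), and UGT1A6 with each library but CD90− replicate 1 (0.056 to 0.15). With the replicate number as a block, RNLS and UGT1A6 did not pass (adjusted p = 0.11 and 0.12, limma). With the trend and robust settings of eBayes, ALDH2 and UGT1A6 did not pass (adjusted p = 0.053 and 0.057, limma), nor did UGT1A6 with an offset of 5 RPM (adjusted p = 0.070, limma).

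Of 7 genes that supply coenzymes, 1 rose and 0 fell with limma (median log2 fold change -0.020), while 2 were lower at an unadjusted p of at most 0.05, at any fold, and 1, MAT2A, fell with edgeR and DESeq2. PDXK, which makes the pyridoxal phosphate that DDC and HDC need, had 123, 196 and 149 RPM in CD90− and 268, 297 and 287 RPM in CD90+. The libraries did not overlap and the mean was 1.82-fold higher (adjusted p = 0.042, limma). The call was lost with the replicate block (adjusted p = 0.074) and when any library but CD90− replicate 2 was left out (0.065 to 0.13). MAT2A, which makes the methyl donor of HNMT, had 119 ± 19.1 RPM in CD90− and 76.2 ± 10.5 RPM in CD90+ (SD, n = 3 each). Its adjusted p was 0.066, and 0.029 in limma blocked by replicate number. RFK, the riboflavin kinase on the way to the FAD of MAO, had a log2 fold change of -0.41, which did not pass (adjusted p = 0.13, limma).

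Of 13 transporters 0 were called with limma, 3 had an unadjusted p of at most 0.05, and 1, SLC7A5, fell with edgeR and DESeq2. The plasma membrane carriers of noradrenaline and serotonin, SLC6A2 and SLC6A4, and both vesicular carriers, SLC18A1 and SLC18A2, were among 7 at the floor in both lines. SLC22A3, an extraneuronal monoamine transporter, had 45.8 ± 7.68 RPM in CD90− and 30.5 ± 2.67 RPM in CD90+ (SD, n = 3 each, adjusted p = 0.071, limma). It passed with median centring (adjusted p = 0.024, limma). With edgeR and its filter and with DESeq2 it passed the adjusted p (0.0091 and 0.0059) but not the fold. SLC7A5, which carries tryptophan and tyrosine, had 617 ± 158 and 331 ± 81.9 RPM (adjusted p = 0.11, limma). It passed in limma blocked by replicate number (adjusted p = 0.034), and on recovered reads with edgeR (adjusted p = 0.00065) and DESeq2 (adjusted p = 6.6e-05). Its partner chain SLC3A2 had a log2 fold change of 0.0087, and of -0.035 with quantile normalization and -0.018 with median centring.

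Of 31 monoamine receptors 23 were at the floor in both lines, 0 rose and 1 fell with limma. At an unadjusted p of at most 0.05, at any fold, 1 was higher and 2 were lower. On recovered reads 0 rose with edgeR or DESeq2, and 2 fell with DESeq2 and with edgeR without a filter. HTR7, a serotonin receptor, had 3.03, 2.25 and 3.40 RPM in the CD90− libraries and 0 reads in each CD90+ library. Its mean in CD90− was at least 8.71-fold higher than in CD90+, taken at the floor (adjusted p = 0.0019, limma). DRD1, a dopamine receptor, had 9, 24 and 24 reads in the CD90− libraries and 1, 0 and 3 in the CD90+ libraries (log2 fold change -1.30, adjusted p = 0.053, limma). It passed with edgeR without a filter (adjusted p = 1.1e-06) and DESeq2 (adjusted p = 0.00081). HTR1D, a serotonin receptor at a higher level, had 38.7 ± 5.87 RPM in CD90− and 31.2 ± 0.559 RPM in CD90+ (SD, n = 3 each) and did not pass (adjusted p = 0.20, limma).

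Of 12 transcription regulators studied at the MAOA, MAOB or DDC genes, 1 rose and 2 fell with limma (median log2 fold change -0.11). At an unadjusted p of at most 0.05, at any fold, 1 was higher and 3 were lower, and on recovered reads 1 rose and 3 fell with edgeR and DESeq2. SIRT1, a deacetylase gene with 25.0 ± 5.96 RPM in CD90− and 16.4 ± 2.08 RPM in CD90+ (SD, n = 3 each, adjusted p = 0.14, limma), was the one that fell in addition. EGR1, an immediate early factor, fell from 22.4 ± 1.67 to 9.31 ± 1.87 RPM (SD, n = 3 each, adjusted p = 0.011, limma), with an adjusted p of 0.051 without CD90+ replicate 3. SP1, a factor known to bind GC boxes, had 98.9 ± 14.5 and 89.1 ± 6.26 RPM, and CDCA7L, a repressor of MAOA, 104 ± 5.36 and 98.96 ± 14.0 RPM in CD90− and CD90+. Their adjusted p-values were 0.57 and 0.77 (limma). NHLH2 was at the floor in both lines.

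**Figure D3:**
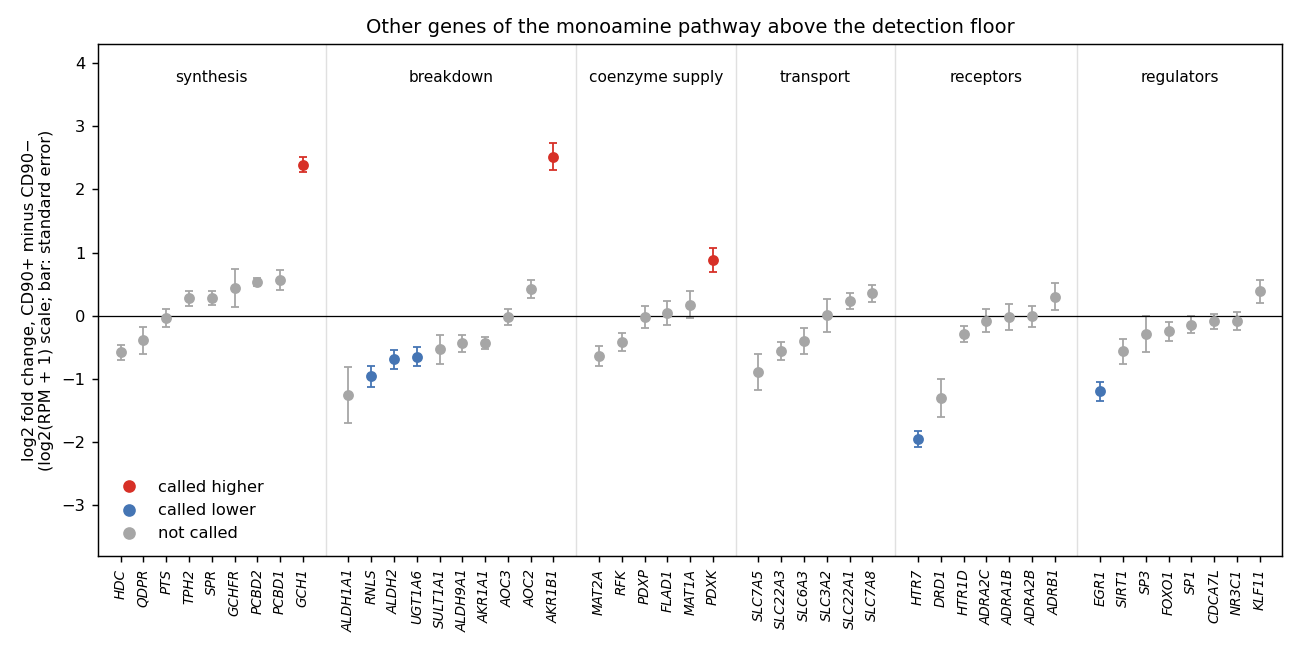
Log2 fold change of CD90+ over CD90− on the log2(RPM + 1) scale (vertical axis) for 46 other genes of the monoamine pathway above the floor in at least 1 line, by list (horizontal axis), with the standard error as bars. Red points rose and blue points fell by the call of the text, and grey points were not called. HTR7 at -1.95 and AKR1B1 at 2.52 are the extremes of the genes plotted.

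**Figure D4:**
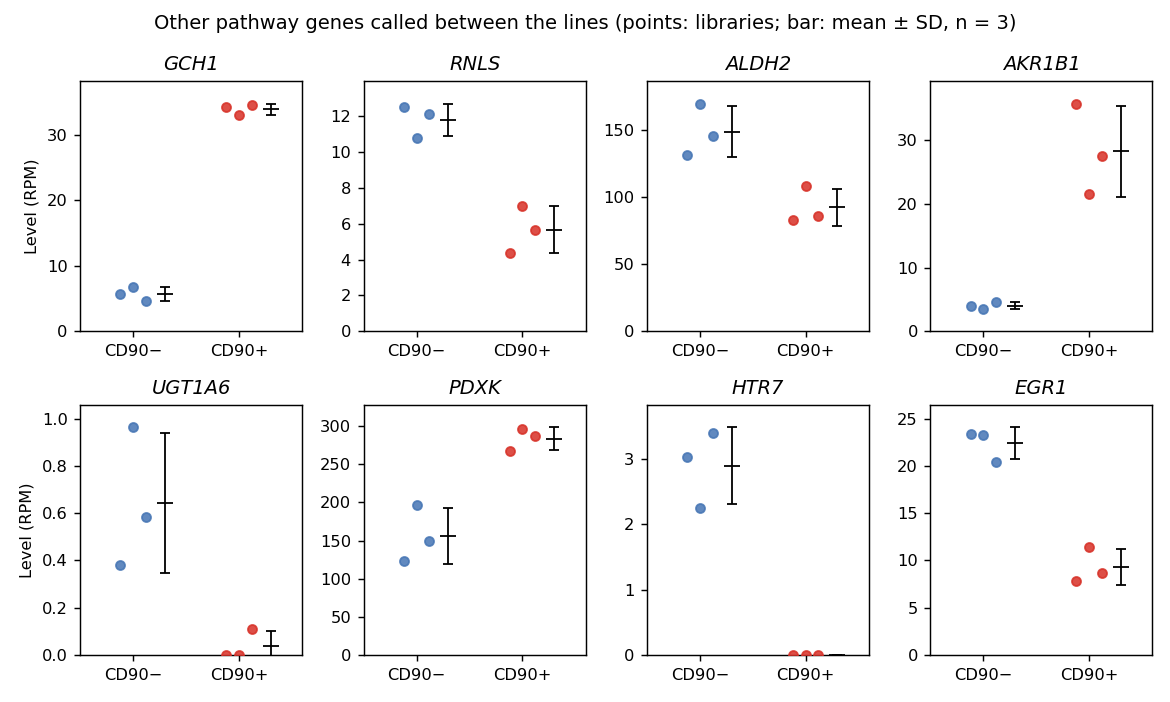
Level in RPM (vertical axes, a separate linear scale for each gene) of 8 other pathway genes that were called, in the 3 CD90− (blue) and 3 CD90+ (red) libraries, with the mean and SD of each line in black. GCH1, AKR1B1 and HTR7 show wide gaps, while ALDH2 and PDXK differ by less than 2-fold.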

How the data were processed

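Total RNA of 3 HuCCT1/CD90+ and 3 HuCCT1/CD90− libraries went into Ion AmpliSeq Transcriptome libraries, read on an S5 Prime. Reads were assigned to amplicons by the ampliSeqRNA plugin, and the authors deposited the RPM of 20811 genes, including those at 0. The submitters' processing notes name hg19 and the Transcriptome Analysis Console. The table holds no positions, so GRCh38.p14 was used for gene order and promoter sequences only. Whole reads were recovered from 100% of values (tolerance 0.001 RPM).

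Differences were tested with limma 3.58.1 in R 4.3.3 on log2(RPM + 1) over all genes, and a gene was called, or said to rise or fall, at a Benjamini-Hochberg adjusted p of at most 0.05 and a fold of at least 1.5. The study's methods state the same fold with a p-value for which no adjustment is named. Where a line had 0 reads in every library, a fold is a bound against the mean floor of 3 reads in its libraries, and members with few reads in a line have the ratio of summed reads with its counting interval. The members and lists were chosen with earlier results of these data known. Genes named are the 5 members, at most 4 called genes a direction and the 2 most abundant uncalled genes of each list, the 3 genes most like each member and the 5 nearest genes on each side, those at the floor in part by their number of reads only. TPH2, HDC, AOC1, RFK, SLC22A3, DRD1, PCBD2, ALDH1A1, SIRT1, the genes listed at the floor and the single markers were named after their values were seen. Some genes of the lists enter the counts and medians, but their own values are not reported here. SULT1A3, HRH1, ADRB3 and the mast cell marker TPSAB1 were not analysed here. Deviations of same-numbered libraries correlated with r = 0.21, 0.32 and 0.18, so same-numbered libraries were treated as pairs in an alternative with a replicate block. No label says what a number marks. Other alternatives were offsets of 0.1 and 5 RPM, a mean of at least 1 RPM, quantile normalization, median centring, eBayes with trend and robust settings, each library left out, unadjusted p, a fold of 2, and edgeR 4.0.16 and DESeq2 1.42.0 on recovered reads. No library duplicated another within sampling noise. Scripts were tested on simulated data.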

Additional observations from a re-analysis of the deposited data

How the results depend on the processing

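The log2 fold change of MAOA was 8.28 with an offset of 0.1 RPM, 3.95 with 5 RPM, 8.48 with edgeR (with and without its filter) and 8.58 with DESeq2, and that of MAOB -5.34, -1.19, -6.27 and -6.50 (DESeq2), as the offset sets the fold of genes near 0. With 1 library left out MAOA ranged from 5.89 to 6.13, MAOB from -2.96 to -2.69, HNMT from -0.47 to -0.18 and TPH1 from -0.058 to 0.20. TPH1 was 0.81 with edgeR without a filter and 0.89 with DESeq2. DDC stayed at 0 when any library was left out and was -0.026 with median centring, which moves genes without reads. With the replicate block 4 other pathway genes rose and 6 fell, and over all genes 1011 fell and 1091 rose, against 1558 and 1580 without it. The block ended the calls of RNLS, UGT1A6 and PDXK, of the neighbour SEC61G and of the markers SERPINA1, COL1A2 and DCN, and brought in MAT2A and SLC7A5. It changed no other call among the pathway genes, neighbours and markers for which it was computed. With the trend and robust settings of eBayes 5 rose and 4 fell, and over all genes 1499 and 1478. The falling pathway genes, 6 by the test of the report, numbered 12 with median centring (the median of genes averaging 1 RPM or more then lies at -0.035, before it at -0.0086), 12 with edgeR without a filter, 12 with DESeq2 and 10 at an unadjusted p of at most 0.05, where the falling genes of the whole table, 1558 by the test of the report, numbered 2054, 2332, 2064 and 2076. At a fold of at least 2, 3 rose and 3 fell, and over all genes 952 and 922. With 1 library left out 3 to 4 pathway genes rose and 2 to 6 fell, and over all genes 960 to 1174 rose and 908 to 1240 fell. CDCA7L (-0.18 to 0.022 with 1 library left out) changed sign without CD90+ replicate 3 (0.022), SPOPL (-0.052 to 0.33) without CD90− replicate 2 (-0.052), FUNDC1 (-0.12 to 0.18) without CD90− replicate 1 (-0.12) or CD90+ replicate 2 (-0.025), and SLC3A2 (-0.18 to 0.16) without CD90− replicate 1 (-0.15) or CD90+ replicate 2 (-0.18), with quantile normalization (-0.035) and with median centring (-0.018). The cause of these shifts was not tested. Depth limits DDC, TPH1 and the genes at the floor, for which levels under about 3 reads a library cannot be told from 0.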
